A study of Mus musculus with 6 samples.

Results

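The Myc, Max and Mxd network was described here in dorsal root ganglia, the clusters of sensory neurons and glia beside the spinal cord. The set has 10 genes, Bmyc, Myc, Mycn, Mycl, Max, Mxi1, Mxd1, Mxd4, Mnt and Mlx, out of 55809 gene symbols counted and 20146 genes tested. Bmyc was chosen by its measured difference between the groups in these libraries, and the other 9 by membership of the network. The group difference of Bmyc is therefore given as a description, and nothing is supported with it. All 10 members were found by symbol and all 10 passed the filter on low counts.

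Ganglia came from 8-week-old C57BL6J offspring, with 3 control pools and 3 prenatal stress pools of 3 mice each. Dams of the prenatal stress group were restrained in tubes under bright light, 3 times a day for 30 min, between embryonic days 13 and 18 per the treatment protocol or 13.5 and 18.5 per the series' design text, and control dams were not disturbed. The sources also differ on the mice, with 3 per group in the treatment protocol and 9 in the design text, and the titles name pools of 3 mice. No transgene or deletion is named for either group. The labels state that mice of both sexes were used and give neither sex nor litter for a pool, so p-values measure the spread between pools. Total gene counts were 51.7 to 87.4 M per pool. Summed levels of 10 sensory neuron markers were 10600 to 11300 CPM (counts scaled to library size) in all 6 pools, and markers of satellite glia and of Schwann cells were also abundant. Skeletal muscle markers summed to 2190 CPM in control pool 3 against 14.6 to 46.5 CPM in the other 5 pools, and each muscle, marrow and erythroid marker had counts in every pool.

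Myc proteins bind DNA at E-box sequences as dimers with Max and raise transcription of genes for growth, ribosome production and metabolism. Mxd proteins, Mxi1 and Mnt pair with the same partner and recruit Sin3 and histone deacetylases to the same sites, so the network is usually described as a balance of activators and antagonists around Max. B-Myc, the product of Bmyc in rodents, resembles the amino-terminal part of c-Myc but lacks the region that dimerises and binds DNA. In adult neurons, which do not divide, the antagonists are generally the more prominent side.

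The E-box searched here was CACGTG, which reads the same on both strands. It was looked for in RefSeq promoter windows of build GRCm38.p6, 250 bases before to 50 bases after each start, because it is the site that most dimers of the network share. Of the 10 members, 9 (all but Myc) were matched by symbol, and 4 of these 9 held the motif, against 8.09% of 27025 genes and 7.15% of 32851 windows. The 4 were Max, Mxd4, Mnt and Mlx, whose surroundings of the E-box are shown on the gene's strand with the motif in capitals. They lie at chr12:76962234-76962263 (minus strand), chr5:34187912-34187941 (minus), chr11:74830789-74830818 (plus) and chr11:101087238-101087267 (plus).
Max: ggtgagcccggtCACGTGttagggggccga
Mxd4: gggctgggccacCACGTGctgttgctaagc
Mnt: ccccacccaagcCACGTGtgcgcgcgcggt
Mlx: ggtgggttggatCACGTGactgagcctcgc
The Bmyc window did not hold these letters, but it reaches only 110 bases ahead of the GENCODE start. Its 110 bases ahead of the GENCODE start, which lies 140 bases before the RefSeq start, are at chr2:25706629-25706738 (plus) and are shown because Bmyc is the member whose level differed most between the groups. No part is in capitals.
Bmyc: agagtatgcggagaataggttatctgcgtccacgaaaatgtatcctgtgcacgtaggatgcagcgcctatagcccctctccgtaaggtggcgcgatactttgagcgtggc

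Bmyc transcripts stood at 9.74, 10.5 and 10.3 CPM in control pools 1 to 3 and at 16.2, 16 and 16 CPM in prenatal stress pools 1 to 3. All 3 stress pools were above all 3 control pools, with a wide gap and little scatter on either side. The counts behind these levels were 676, 679 and 899 in controls and 1256, 1055 and 827 in stress pools. The fitted log2 fold change of prenatal stress over control was 0.66 ± 0.05 (SE, n = 3 pools each; 95% interval 0.54 to 0.78), a fold of 1.58.

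The spread of Bmyc among stress pools, a coefficient of variation of 0.744%, was smaller than the counting error of any 1 library, which is 2.82% to 3.85% of its count. Among control pools the coefficient of variation was 3.73%, within that range. The SD of 0.12 CPM in the stress group is thus below what sampling of reads alone gives on average.

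In the fit across all genes Bmyc ranked 6 by p (edgeR's quasi-likelihood test, Benjamini-Hochberg adjusted p = 0.00977), the value by which it was chosen. It was the only member called higher, 1 of 10, and 0 were called lower, against 0.0844% of all genes tested called higher and 0.129% called in either direction. Since Bmyc was chosen for this call, the count is not read as a result about the network. The call was lost without control pool 2 (edgeR adjusted p = 0.0725), without prenatal stress pool 1 (0.0871) and without prenatal stress pool 2 (0.0531), with log2 fold changes of 0.67, 0.65 and 0.66. Offsets for GC content and length, which matter for a transcript of 983 bases with 58% GC, left the log2 fold change at 0.69.

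An antisense gene, A230005M16Rik, shares exonic bases with Bmyc, and whether the counting used strand is not given in the sources used here. The transcripts of the 2 genes align over 623 bases at 99.8% identity. A230005M16Rik had 7, 4 and 12 counts in control pools and 1, 5 and 6 in stress pools, at most 0.138 CPM. These counts do not tell how reads in the shared bases were assigned, so the level of Bmyc may be too low.

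**Figure D1:**
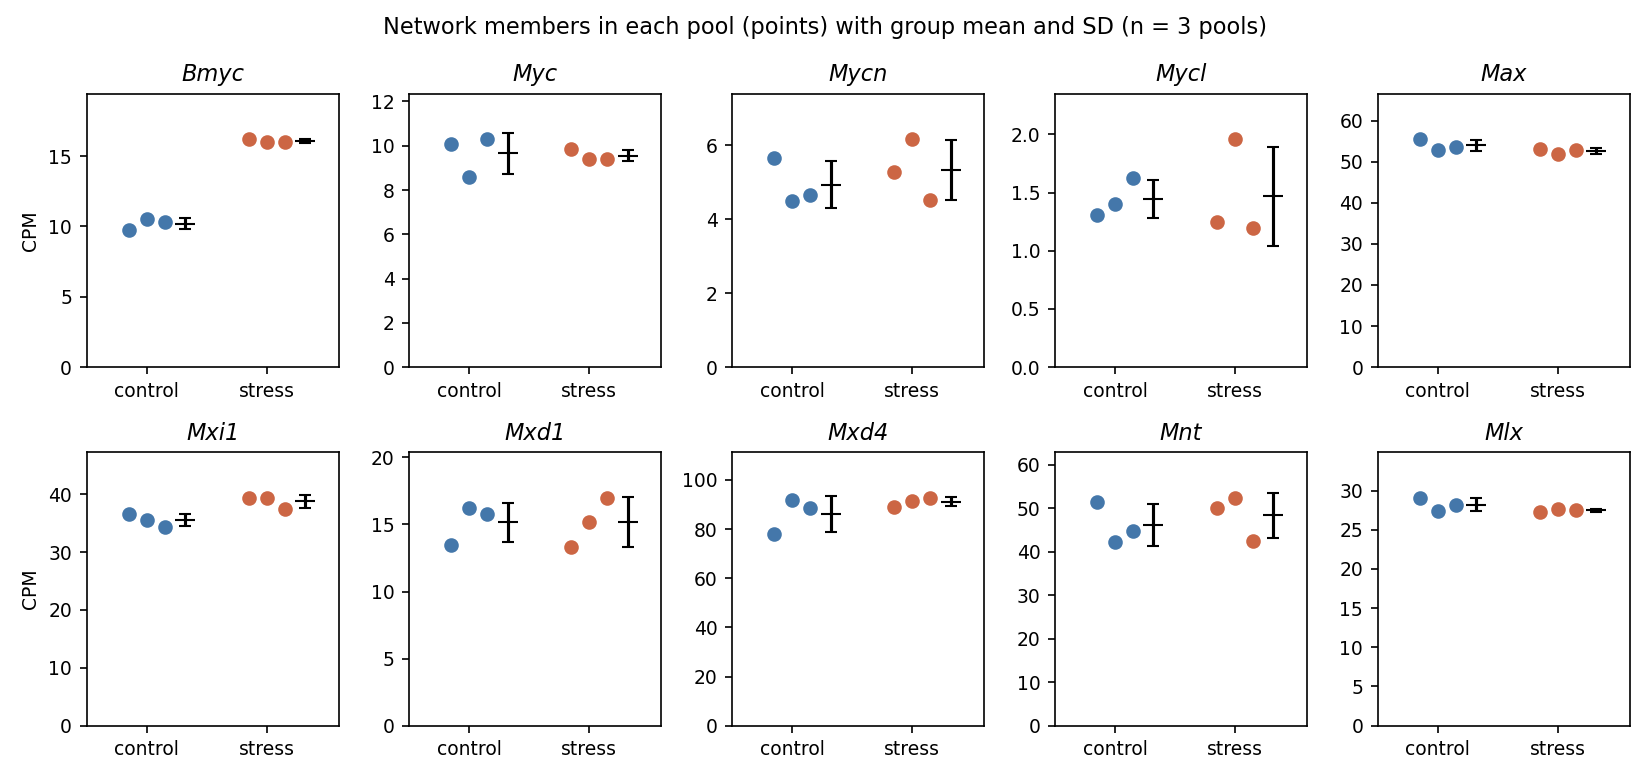
CPM of the 10 members in each pool (points; blue, control; orange, prenatal stress), with the mean and SD of 3 pools as a black bar beside each group; each panel has its own axis from 0. Bmyc lies at 9.74 to 10.5 CPM in control and 16 to 16.2 CPM in stress pools, Mxi1 is the other member whose groups do not overlap, and the remaining 8 overlap.

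None of the DNA-binding Myc genes (Myc, Mycn and Mycl) was called, and the groups of each overlapped. Myc, which encodes the growth-promoting factor c-Myc, stood at 10.1, 8.6 and 10.3 CPM in control pools and 9.84, 9.42 and 9.41 CPM in stress pools. The 3 stress values lie inside the range of the controls. Its log2 fold change was -0.01 ± 0.08 (edgeR adjusted p = 0.971; 95% interval -0.21 to 0.18).
Mycn encodes N-Myc, best known from the developing nervous system. It had 5.66, 4.5 and 4.65 CPM in controls and 5.29, 6.17 and 4.53 CPM after prenatal stress, with overlapping groups (0.11 ± 0.14, edgeR adjusted p = 0.826).
Mycl, the gene of L-Myc, was the lowest member at 1.31, 1.4 and 1.63 CPM in controls and 1.25, 1.96 and 1.2 CPM in stress pools. It rested on 62 to 142 counts per library, so counting error alone is up to 12.7%, and stress pool 2 was higher than the other 5 pools (0.02 ± 0.22, edgeR adjusted p = 0.983; 95% interval -0.49 to 0.53). A change of Mycl within that interval was not detectable at this depth and number of pools.

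Max, the shared dimer partner, varied little in relation to its level. It stood at 55.5, 52.9 and 53.6 CPM in control pools and 53.1, 51.8 and 52.8 CPM in stress pools. Stress pool 1 lay within the range of the controls and stress pools 2 and 3 were just under it (-0.04 ± 0.03, edgeR adjusted p = 0.701; 95% interval -0.12 to 0.04). Mlx, the Max-like partner of the glucose-sensing Mondo proteins, had 29.1, 27.4 and 28.1 CPM in controls and 27.3, 27.7 and 27.5 CPM after stress. These groups overlapped too (-0.04 ± 0.04, edgeR adjusted p = 0.788). Mlx shares exonic bases with Psmc3ip on the opposite strand, which was at 0.988 to 1.4 CPM.

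Among the antagonists only Mxi1 had groups that did not overlap. Mxi1, also known as Mxd2, stood at 36.5, 35.6 and 34.4 CPM in control pools and 39.4, 39.4 and 37.4 CPM in stress pools. The lowest stress pool was above the highest control pool by a margin smaller than the range within either group. Its log2 fold change of 0.13 ± 0.04 had an unadjusted p = 0.015 and did not pass over all genes (edgeR adjusted p = 0.366; 95% interval 0.03 to 0.22). With GC content and length offsets it was 0.10. Separation of this kind was common: 18.1% of all genes tested had groups that did not overlap. Stress was higher for 9.33% of all genes and lower for 8.76%. The groups were apart for 2 of the 10 members, but 1 of these, Bmyc, was chosen for its group difference. Of the other 9 members only Mxi1 had groups apart.

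Mxd1, an antagonist that rises as cells leave the cycle and differentiate, stood at 13.5, 16.2 and 15.8 CPM in controls and 13.3, 15.2 and 17 CPM after stress. The lowest and the highest value both belonged to the stress group (-0.00 ± 0.11, edgeR adjusted p = 0.994).
Mxd4 had 77.9, 92 and 88.4 CPM in control pools and 89.1, 91.4 and 92.8 CPM in stress pools. Control pool 1 was lowest and the other 5 pools lay close together (0.08 ± 0.06, edgeR adjusted p = 0.666).
Mnt, a broadly expressed antagonist, had 51.5, 42.3 and 44.7 CPM in controls and 50.1, 52.4 and 42.5 CPM after stress. High and low pools occurred in both groups (0.07 ± 0.10, edgeR adjusted p = 0.848).

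Of the 9 members other than Bmyc, 0 passed edgeR's quasi-likelihood test over all genes and 0 passed the DESeq2 Wald test, which called 1.64% of all genes. Among those 9, 1 had an unadjusted p under 0.05, namely Mxi1, a share near the 11.1% of all genes tested (2241 of 20146). Their log2 fold changes ran from -0.04 to 0.13 with a median of 0.02, beside a median of 0.01 over all genes tested. That the test was missed does not show that these genes were equal between groups: the intervals for Max, Mlx and Mxd4 are narrow, while those for Mycn and Mycl include differences of more than 0.4 on the log2 scale.

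**Figure D2:**
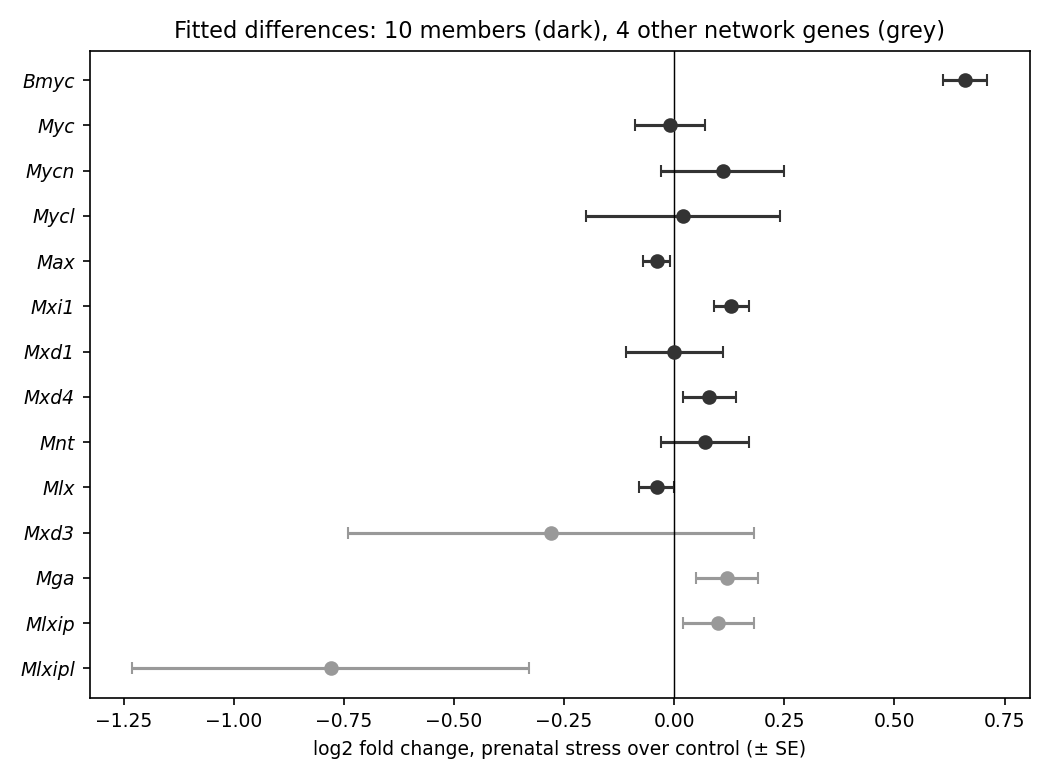
Log2 fold change of prenatal stress over control with its SE from the fit over all genes, for the 10 members (dark) and 4 other genes of the network (grey). Bmyc lies at 0.66, the other 9 members lie between -0.04 and 0.13, and the widest bars belong to Mxd3 and Mlxipl.

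Levels of different genes were compared per length, as CPM per kb of annotated exons. On this scale Max was highest over the 6 pools (14.8 ± 0.349 CPM per kb, SD, n = 6), followed by Mlx (13.9 ± 0.344), whose ranges overlapped. Mxd4 (10.4 ± 0.649) and Mnt (10.2 ± 0.988) overlapped each other and lay under them. Mxi1 (5.44 ± 0.295), Myc (3.53 ± 0.221), Mxd1 (2.14 ± 0.211), Mycn (1.56 ± 0.21) and Mycl (0.361 ± 0.071) came next, each apart from its neighbours in every pool.
Bmyc was placed differently by group. At 10.3 ± 0.386 CPM per kb in controls (n = 3) it lay among Mxd4 and Mnt, and at 16.4 ± 0.122 in stress pools (n = 3) it lay above Max, which had 14.6 ± 0.194 there. The lengths are unions of annotated exons, so a gene with many unused exons is placed too low on this scale, and Bmyc has only 1 exon. The length of Bmyc includes the bases shared with A230005M16Rik. If reads there went uncounted, Bmyc is also placed too low, as is its share within the Myc family. Mlx, Mxi1 and Mxd4 share exonic bases with Psmc3ip, Gm10197 and Gm42846, in that order, on the opposite strand. The same limit holds for their levels and for sums that include them.

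**Figure D3:**
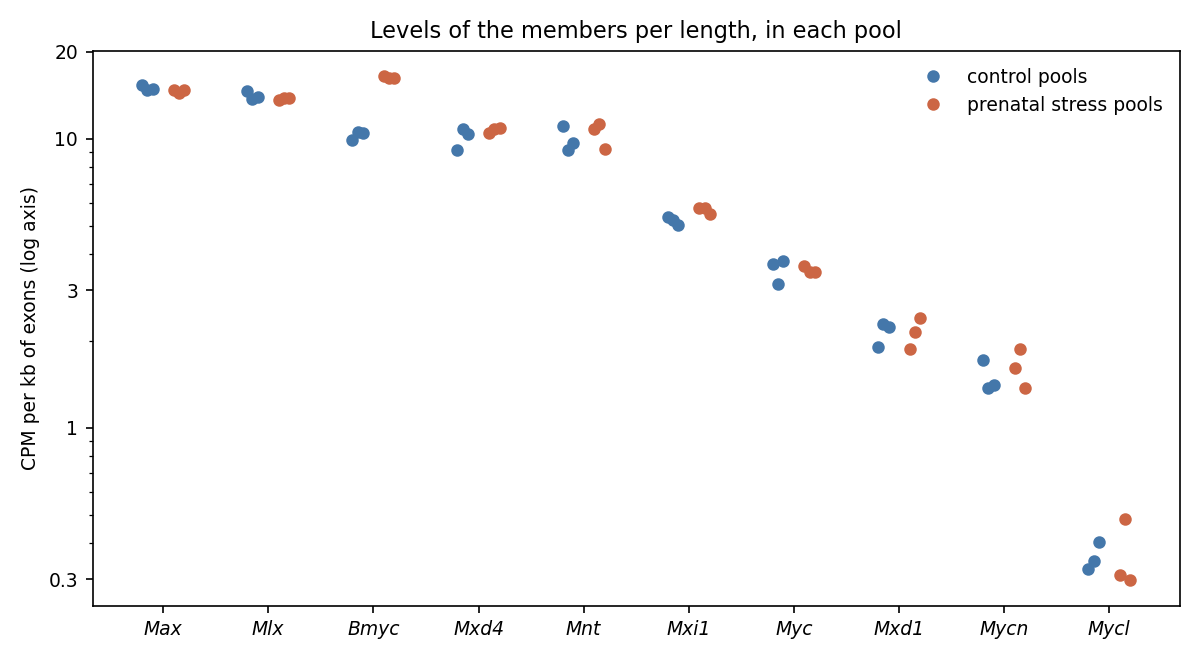
Level of each member per kb of annotated exons in each pool (log axis; blue, control; orange, prenatal stress), ordered by the mean over 6 pools. Bmyc is at 9.91 to 10.6 CPM per kb in control and 16.3 to 16.5 in stress pools, and Mycl is lowest at 0.297 to 0.485.

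Within the 4 genes of the Myc family, Bmyc made up 63.3%, 68.6% and 65.2% of the summed level per kb in control pools 1 to 3 and 74.9%, 73.6% and 76% in stress pools. This higher share follows from Bmyc itself, since the summed level of Myc, Mycn and Mycl was 5.75, 4.88 and 5.6 CPM per kb in controls and 5.54, 5.83 and 5.14 in stress pools, with overlapping groups. The summed level of Mxi1, Mxd1, Mxd4 and Mnt was 27.6, 27.5 and 27.4 CPM per kb in controls and 29, 30 and 28 in stress pools. Divided by the level of Max, the antagonists stood at 1.79, 1.87 and 1.84 in controls and 1.96, 2.09 and 1.91 in stress pools, and the 3 DNA-binding Myc genes at 0.372, 0.332 and 0.376 and at 0.375, 0.405 and 0.35. Per kb, the antagonists stood at 4.8 to 5.64 times the level of Myc, Mycn and Mycl in every pool. The antagonist sums do not overlap between groups, and no test was run on sums over the members.

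The genes whose pattern over the 6 pools was most like that of Bmyc were Cox8a, Rpl13, Tlx2, Jund and Tpgs1, out of 10369 genes with a mean of at least 10 CPM. Likeness was the root mean square difference of centred log2 CPM, which was 0.007 for Cox8a, a subunit of cytochrome c oxidase, and 0.053 to 0.065 for the other 4. A gene with a flat profile would be at about 0.331. These 5 genes share with Bmyc mainly its step between the groups, by which they were selected, and all of them were among the genes called higher. Of the members measured in this way, Mxi1 was nearest at 0.273.

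The remaining network genes, from a list outside the 10 members, were Mga, Mlxip, Mlxipl and Mxd3. Of these 4, 0 passed edgeR's test or had an unadjusted p under 0.05. DESeq2 called none of Mga, Mlxip and Mlxipl and gave no adjusted p for Mxd3. Mga, a large repressor that pairs with Max, was at 46.2 ± 1.39 CPM in controls and 50.1 ± 5.04 CPM after stress (SD, n = 3; 0.12 ± 0.07). Mlxip, which encodes MondoA, was at 59.1 ± 6.23 and 63.5 ± 4.75 CPM (0.10 ± 0.08). Mxd3, an antagonist found in dividing cells, had 14 to 57 counts per library (-0.28 ± 0.46).
Mlxipl, which encodes the carbohydrate-responsive factor ChREBP, stood at 1.15, 1.06 and 3.42 CPM in controls and 1.15, 0.971 and 1.18 CPM in stress pools. Control pool 3 was the only high library (-0.78 ± 0.45, edgeR adjusted p = 0.557), and without it the log2 fold change was -0.01. Hexokinase 2 (Hk2), named after its values were seen, had the same shape, with 17.1 CPM in control pool 3 against 5.89 to 8.21 CPM in the other 5 pools (-0.64, and -0.09 without control pool 3). That pool also held the high skeletal muscle markers given above. The 7 muscle markers had negative log2 fold changes and 0 were called by edgeR or DESeq2, with 6 at an unadjusted p under 0.05; without control pool 3 their sums were 14.6 and 37.2 CPM in controls and 30.6, 46.5 and 42.6 CPM in stress pools. Their part in Mlxipl and Hk2 was not tested.

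Transcripts of genes that Myc is known to activate had mostly small negative log2 fold changes, and none passed edgeR's test. Of 20 nucleolar and ribosome biogenesis genes, 17 had negative values with a median log2 fold change of -0.06, and 0 passed edgeR's test or DESeq2, with 5 at an unadjusted p under 0.05 beside 11.1% of all genes. The groups did not overlap for 8 of the 20, all with stress lower, beside 8.76% of all genes. Nop56, a core protein of box C/D ribonucleoproteins, stood at 66.7, 67.5 and 65 CPM in controls and 60.6, 62.9 and 59.9 CPM after stress (-0.12 ± 0.03, edgeR adjusted p = 0.327). Gnl3, the gene of nucleostemin, was at -0.13 ± 0.04 and Wdr43 at -0.12 ± 0.05 (adjusted p = 0.385 and 0.413).

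Of 22 metabolic and growth targets, 18 had negative values with a median of -0.08, and 0 passed edgeR's test, with 8 at an unadjusted p under 0.05 beside 11.1% of all genes. The groups of 8 did not overlap, again all with stress lower, beside 8.76% of all genes. Eif4a1, a translation initiation helicase, stood at 315, 312 and 297 CPM in controls and 279, 276 and 283 CPM in stress pools (-0.14 ± 0.03, edgeR adjusted p = 0.273). Lactate dehydrogenase A (Ldha) stood at 439, 424 and 452 CPM and 404, 393 and 407 CPM (-0.13 ± 0.03, adjusted p = 0.311). DESeq2 called both genes (adjusted p = 0.0116 and 0.0333) and no other of the 22, beside 1.64% of all genes. Impdh2, an enzyme of guanine nucleotide synthesis, was at -0.18 ± 0.05 (edgeR adjusted p = 0.327), and Odc1, of polyamine synthesis and a long-known Myc target, was at 65.9 ± 3.52 CPM and 60.3 ± 1.12 CPM (SD, n = 3) (-0.13 ± 0.04, adjusted p = 0.378).
The E-box stood in the promoter window of 7 of 19 metabolic and growth targets found in the table, among them Ldha, Impdh2 and Eif4a1, and in 3 of 15 nucleolar genes. These lists were drawn up from known targets, so the share is a property of the choice.

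Satellite glia markers also had negative values. Their summed level was 3130, 3490 and 3240 CPM in controls and 2930, 3100 and 2780 CPM in stress pools, with 8 of 8 values negative and a median of -0.18 (0 called by edgeR, 4 at an unadjusted p under 0.05 and 4 called by DESeq2, beside 11.1% and 1.64% of all genes). Schwann cell markers were negative for 7 of 8 (median -0.07), and DESeq2 called Ncmap (-0.23 ± 0.07, edgeR adjusted p = 0.337). The 10 sensory neuron markers had a median of -0.00, and DESeq2 called Tubb3 among them (-0.18 ± 0.05, edgeR adjusted p = 0.297). The part of cell composition in the values of the target lists was not tested. In bulk ganglia fewer cells of a type and less RNA per cell cannot be told apart.

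**Figure D4:**
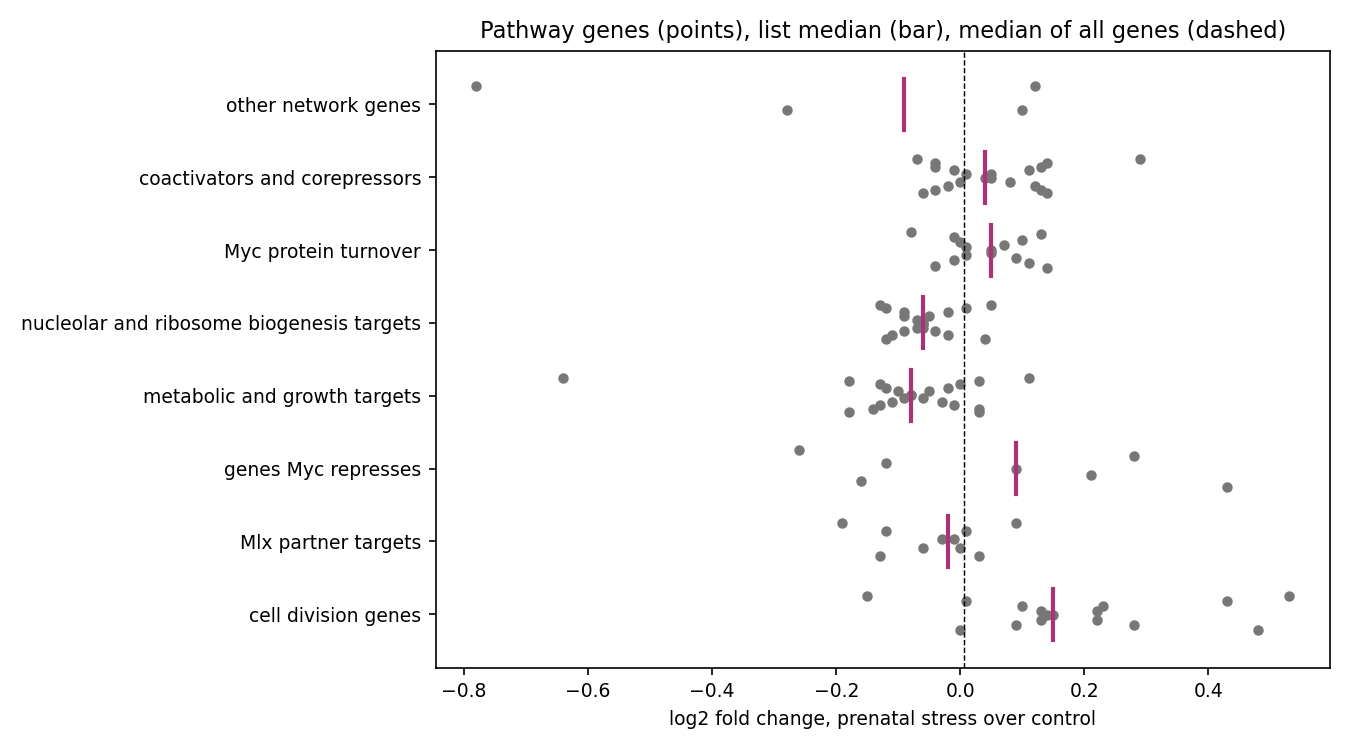
Log2 fold changes of 114 pathway genes tested (points) in 8 lists, with each list's median (bar) and the median of all genes (dashed line at 0.01). Most nucleolar and metabolic targets lie under 0, cell division genes mostly above it, and Hk2 at -0.64 and Mlxipl at -0.78 stand apart.

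Genes that Myc is known to repress pointed both ways. Of 7, 4 had positive and 3 negative values, with a median of 0.09, and 0 passed edgeR's test with 4 at an unadjusted p under 0.05 beside 11.1% of all genes. The cell cycle inhibitor Cdkn1a, which encodes p21, stood at 92.4, 93.8 and 91.1 CPM in controls and 83.8, 78.2 and 69.7 CPM after stress (-0.26 ± 0.06, edgeR adjusted p = 0.286; DESeq2 adjusted p = 0.00809). Its relatives Cdkn1c (mean 4.05 CPM in controls and 5.46 CPM after stress, 0.43 ± 0.12) and Cdkn2b (2.31 and 2.81 CPM, 0.28 ± 0.10) had positive values and groups that did not overlap (adjusted p = 0.332 and 0.398).

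Partner proteins and regulators of Myc stability had mostly small positive values. Of 20 coactivators and corepressors 13 had positive values (median 0.04), and 0 passed edgeR or DESeq2 or had an unadjusted p under 0.05. Their summed level was 1070, 1060 and 1090 CPM in controls and 1100, 1140 and 1100 CPM after stress, without overlap. Smarcb1, a subunit of the SWI/SNF remodelling complex, was at 0.11 ± 0.05 and Sap30, a subunit of the Sin3 complex, at 0.29 ± 0.15 (edgeR adjusted p = 0.489 and 0.506). The 95% interval for Sap30 ran from -0.05 to 0.63. Of 15 genes for Myc protein turnover 10 had positive values (median 0.05), and 0 passed edgeR or DESeq2. The ubiquitin ligase Stub1, the 1 gene with an unadjusted p under 0.05, stood at 53.3, 54.4 and 54.6 CPM in controls and 59.5, 60.7 and 58 CPM after stress (0.14 ± 0.03, edgeR adjusted p = 0.273). The ligase Fbxw7, which marks phosphorylated Myc for degradation, was at -0.01 ± 0.05.
Of 10 tested targets of the Mlx partners MondoA and ChREBP, 7 had negative values (median -0.02), and 0 passed edgeR or DESeq2, with 2 at an unadjusted p under 0.05 beside 11.1% of all genes. Txnip, the best known MondoA target, was at -0.01 ± 0.05 and Arrdc4 at 0.01 ± 0.06. The desaturase Scd1 (-0.13 ± 0.05) and the factor Klf10 (-0.12 ± 0.05) had the smallest p (edgeR adjusted p = 0.434 and 0.446). Acacb had the most negative value (-0.19 ± 0.23), with 20.8 CPM in control pool 3 against 10.8 to 12.6 CPM in the other pools. The part of the muscle markers of that pool in Acacb was not tested.

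Cell division genes, which Myc activity usually accompanies, differed more between pools of a group than between groups. Of 16 genes 14 had positive values with a median of 0.15, and 0 passed edgeR or DESeq2 or had an unadjusted p under 0.05. Their summed level was 79.1, 79.8 and 97 CPM in controls and 67.1, 91.1 and 134 CPM in stress pools, so the lowest and the highest pool were both stress pools. Neutrophil and marrow markers had the same extremes, at 43.2 CPM in stress pool 1 and 397 CPM in stress pool 3, and erythroid markers stood at 94.7 and 631 CPM there. Without stress pool 3 the median of the cell division list was -0.21, without stress pool 1 it was 0.41 and without control pool 3 it was 0.32. The part of blood or marrow cells in these values was not tested. Bmyc stood at 16.2 and 16 CPM in stress pools 1 and 3, and its relation to these markers was not tested.

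**Figure D5:**
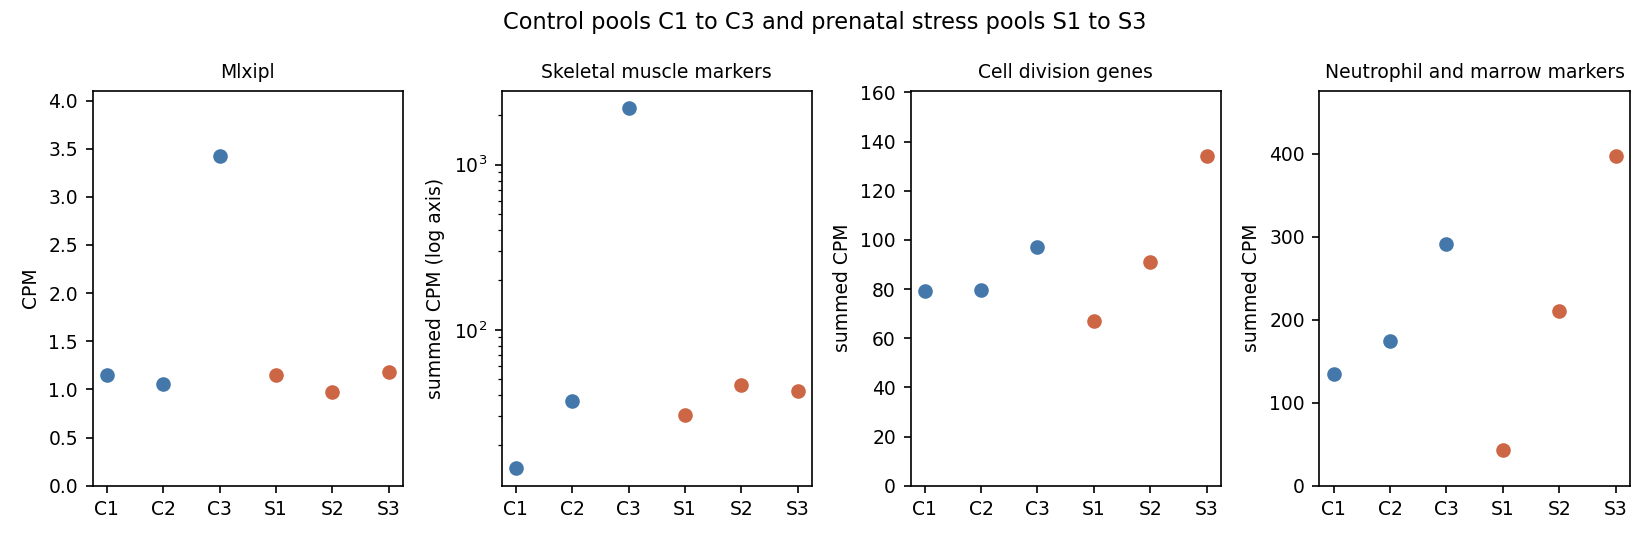
Mlxipl (CPM), skeletal muscle markers (summed CPM, log axis), cell division genes and neutrophil and marrow markers (summed CPM) in control pools 1 to 3 (C1 to C3, blue) and prenatal stress pools 1 to 3 (S1 to S3, orange). Control pool 3 stands out for Mlxipl (3.42 CPM) and muscle markers (2190 CPM), and stress pools 1 and 3 are the extremes of the last pair of panels.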

How the data were processed

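The deposited values are raw counts of reads per gene symbol, 1 file per library, used without change. FastQC, STAR 2.4 and HTSeq 0.9.1 and the builds GRCm39 and mm10 are named in the submitters' processing notes; which build and strand setting the counting used is not given. Reads without a gene (15.3% to 16.2% of a file) were left out.

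The test was edgeR's quasi-likelihood F test (version 4.0.16, R 4.3.3; TMM factors, filterByExpr with a minimum count of 10) between the groups of 3 pools, with Benjamini-Hochberg adjustment over 20146 genes and a threshold of 0.05. The SE was the log2 fold change over the square root of F. CPM use TMM factors. DESeq2 1.42.0 was an alternative. The edgeR step was tested on simulated data. Exon lengths, GC content (95.2% of tested genes) and overlaps came from GENCODE M21, promoters from RefSeq (GRCm38.p6). Transcripts were compared with minimap2 2.31-r1302 (at least 90% identity over 200 bases).

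Members and lists were chosen with earlier results of these data known. Named were all members, the other network genes, up to 3 genes of smallest p per list (some of these are not reported here), any list gene called and the 5 genes nearest Bmyc; other list genes (Odc1, Hk2, Fbxw7, Txnip and Arrdc4) were named after their values were seen. Deviations of same-numbered pools had correlations across genes of 0.34, 0.22 and 0.13. Differently numbered pools ran from -0.3 to 0.12, the highest being control pool 3 with stress pool 2. That check does not separate the partner of control pool 3, and no label ties a number to a litter or day.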

Additional observations from a re-analysis of the deposited data

How the results depend on the processing

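The number of genes called was 26 and became 330 with the DESeq2 Wald test, 49 without the filter on low counts, and 2 to 14 when 1 pool was left out. It was 22 with the replicate block. The number of members called was 1 (Bmyc) and became 0 to 1 when 1 pool was left out. The replicate block, alone or with GC content and length offsets, changed no call of a member: Bmyc had edgeR adjusted p of 0.0282 and 0.032. Over 16 alternatives the log2 fold change of Bmyc ran from 0.63 to 0.69 and its adjusted p from 6.42e-15 to 0.0871. Members near 0 changed sign without being called: Myc was at 0.03 with GC content and length offsets and at 0.03 with these and the replicate block, and Mycl at -0.00 with the replicate block. With 1 pool left out, Myc ran from -0.10 to 0.04, Mycn from -0.01 to 0.22, Mycl from -0.24 to 0.14, Mxd1 from -0.10 to 0.08 and Mxd3 from -0.77 to 0.11. Max and Mlx stayed negative and Mxi1 and Mxd4 positive in the 16 alternatives. Medians of the 8 lists were taken in only part of the 16 alternatives. Of these 72 medians, 69 moved by less than the SD of the list's mean log2 level between pools of a group, and 3 moved more. That limit is wide for lists that vary between pools: the median of the cell division genes changed sign without stress pool 3. Counting error of a library was up to 12.7% for Mycl and 3.85% for Bmyc, and each group had 3 pools.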
